A study of Homo sapiens with 8 samples.

Results

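The 9 genes described here encode 4 matrix metalloproteinases (MMP1, MMP3, MMP13 and MMP14), 3 tissue inhibitors of metalloproteinases (TIMP1, TIMP2 and TIMP3), urokinase (PLAU) and its receptor (PLAUR). They were taken by symbol from the 17649 genes of a table of read counts scaled to library size (CPM), and all 9 had a value in every library. The members were chosen with earlier results of these data known. RNA-Seq was performed on MDA-MB-231, an established human breast cancer cell line without estrogen receptor, after 48 hours with 1 μM carboxymethyllysine (CML), an end product of the reaction of sugars with lysine. Each group had 4 cultures in low glucose medium, and PBS was added to the control cells. The exposed libraries carry the label NCML and are called CML here, and all 8 libraries are from this 1 cell line. The comparison asks which transcripts CML alone changes in these cells, without high glucose.

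Metalloproteinases are zinc-dependent enzymes that cut collagens and other proteins of the extracellular matrix, and TIMPs bind their active sites and block them. Urokinase, held at the cell surface by its receptor, cuts plasminogen into plasmin, which degrades fibrin and can activate the proforms of several metalloproteinases. The system is known for its part in the invasion of tissue by tumor cells. It is controlled not only by transcription but also after it, by secretion, activation and inhibition, none of which RNA measures.

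No member passed the study's inclusion threshold, a false discovery rate (FDR) of 0.3, in the comparison of CML with control cells (0 of 9). The comparison was made here with limma and not with the study's own test, so it does not show which genes passed there. PLAU was 9.16% higher by its means, TIMP3 5.97% higher and MMP13, at 7 to 23 reads per library, 1.86 times as high. These 3 genes were higher in every CML library than in every control library. MMP1, the most abundant member, had a CML mean 0.953 times its control mean, with groups that overlapped, and the other 5 members differed by less than the spread between their replicates. Over all genes, limma called 158 of 17649 at an adjusted p under 0.3, which is 0.895%, and 0 at 0.05. Of these, 119 were higher with CML (0.674% of all genes).

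Estimated depth was 16161815 to 18954740 reads per library, and 1 read was worth 0.0535 to 0.0622 CPM. The markers expected in this line (VIM, CD44, AXL, KRT18 and KRT8) were all above 1 CPM, with a summed level of 6485 to 6702 CPM in control and 6615 to 6965 CPM in CML libraries. Of 5 markers expected to be low or absent, 4 had values, and PGR and CDH1 stayed under 1 CPM while ERBB2 (44.1 to 54.4 CPM) and EPCAM (12.7 to 16.3 CPM) did not. Of 6 fibroblast markers, 3 had a mean over 1 CPM, the summed level was 14.5 to 16.1 CPM in control and 15.1 to 20.4 CPM in CML libraries, and DCN was at or near 0. The third CML library alone held 3.35 CPM of COL3A1. Of 6 leukocyte markers, 4 had values, and nearly all of their sum (161 to 182 CPM in control, 154 to 174 CPM in CML libraries) was CD68, with PTPRC under 1 CPM. The part of other cells in the results was not tested. Nothing says that the cultures were started independently, so p-values measure the spread between these libraries, and in bulk RNA fewer cells that express a gene and less RNA per cell cannot be told apart.

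Per kb of the Ensembl canonical transcript, the scale on which genes can be compared, the control cells ranked the members from MMP1 down to MMP13. MMP1 stood at 629 ± 17.3 CPM per kb (SD, n = 4). By its mean over all 8 libraries, 614 CPM per kb, it ranked 84th among the 17498 genes with a known transcript length. MMP14 followed at 273 ± 13.5, TIMP1 at 229 ± 10.2, TIMP2 at 147 ± 2.38 and PLAUR at 132 ± 4.87 CPM per kb. PLAU had 80.0 ± 3.33 and TIMP3 56.1 ± 1.66 CPM per kb. MMP3 had 0.949 ± 0.323 and MMP13 0.217 ± 0.0508 CPM per kb, so the collagenases MMP1 and MMP13, which share a substrate, lay at opposite ends of the order. No neighbours in this order overlapped in their control ranges, the closest pairs being TIMP2 (144 to 149) with PLAUR (127 to 137) and MMP14 (257 to 288) with TIMP1 (222 to 244 CPM per kb).

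**Figure D1:**
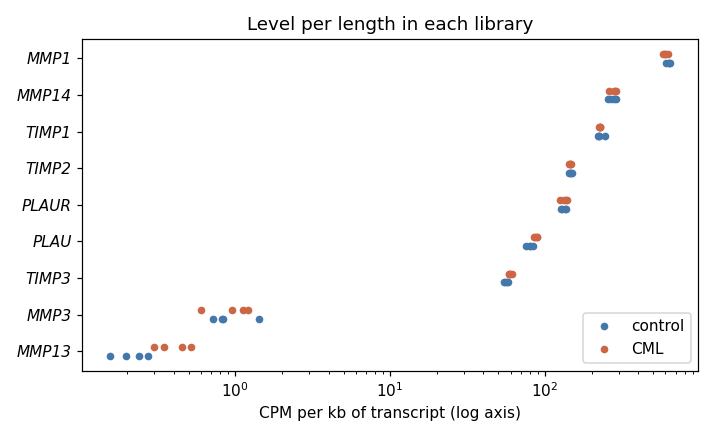
Level of each member in CPM per kb of transcript on a log axis, 1 point per library, control in blue and CML in red. MMP1 lies highest, and MMP3 and MMP13 lie far under the other 7 members in every library.

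Among the secreted collagenases, MMP1 opens fibrillar collagens I, II and III. The gene (ENSG00000196611.5) is at chr11:102789919-102798160 on GRCh38.p14. Its levels were 1193, 1238, 1250.3 and 1274 CPM in control libraries 1 to 4 and 1143, 1179, 1176 and 1226 CPM in CML libraries 1 to 4. The fourth CML library exceeded the first control library, so the groups overlapped, although the CML values were lower by 57.8 CPM on average. Means were 1239 ± 34.1 and 1181 ± 34.5 CPM (SD, n = 4 each). The log2 fold change, of log2(CPM + 1) throughout, was -0.07 ± 0.03 (SE), with a 95% interval of -0.14 to 0.00 and an adjusted p of 0.665 (limma with Benjamini-Hochberg adjustment over all genes). An exact 2-sided permutation test over the 70 labellings of the 8 libraries gave p = 0.0571, and the smallest p that test can give is 0.0286.

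MMP13, collagenase 3, prefers collagen II and is found mostly in cartilage and bone. Its gene (ENSG00000137745.12) lies at chr11:102942995-102955732. Control libraries held 0.537, 0.650, 0.423 and 0.741 CPM and CML libraries 0.810, 1.23, 1.40 and 0.933 CPM. All CML values were above all control values. These levels stand for 7 to 13 reads per control library and 14 to 23 per CML library. The mean went from 0.588 ± 0.138 to 1.09 ± 0.271 CPM (SD, n = 4 each), and the log2 fold change was 0.39 ± 0.11 (SE, adjusted p = 0.399, limma). The pseudocount of 1 CPM is larger than most of these values, and with a pseudocount of 0.1 the log2 fold change was 0.79 (adjusted p = 0.411, limma). At the mean reads of all 8 libraries together, counting error alone would give a coefficient of variation of 26.4%. It is larger at the fewer reads of control libraries and smaller at those of CML libraries. The replicates varied by 23.5% in control and 24.7% in CML libraries. The exact permutation p was 0.0286, the smallest possible.

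MMP3, stromelysin 1, cuts proteoglycans, fibronectin and laminin and can activate proMMP1. It is the neighbour of MMP1, at chr11:102835801-102843609 (ENSG00000149968.12). The level was 1.49, 2.60, 1.51 and 1.31 CPM in control and 1.10, 2.03, 2.19 and 1.74 CPM in CML libraries, or 19 to 44 reads. The second control library was the highest of all, and the groups overlapped over most of their range. Means were 1.73 ± 0.589 and 1.77 ± 0.483 CPM (SD, n = 4 each). The log2 fold change was 0.02 with a 95% interval of -0.41 to 0.46 (adjusted p = 1, limma).

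MMP1, MMP3 and MMP13 belong to a cluster of metalloproteinase genes on chromosome 11. Of the other genes there, MMP10 (stromelysin 2, chr11:102770502-102780628) was measured at 2.68 to 3.22 CPM in control and 1.40 to 3.48 CPM in CML libraries, with groups that overlapped (log2 fold change -0.22, adjusted p = 0.897, limma). MMP7, MMP8, MMP12, MMP20 and MMP27 had no values here. MMP1 was thus the 1 abundant gene of the 4 measured in the cluster.

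MMP14, also called MT1-MMP, is anchored in the plasma membrane, cuts collagen there and activates proMMP2. Its gene (ENSG00000157227.13) is at chr14:22836585-22847758. Control libraries had 1066, 994, 1034 and 949.9 CPM and CML libraries 1039, 1070, 1050.1 and 956 CPM. In both groups the fourth library was the lowest, and the groups overlapped almost entirely. The means of 1011 ± 50.03 and 1029 ± 49.9 CPM (SD, n = 4 each) differed by a log2 fold change of 0.03, with a 95% interval of -0.09 to 0.14 (adjusted p = 0.988, limma). The control replicates varied by 4.95%, against 0.759% from counting error. MMP2, the main substrate of MMP14 among the proenzymes, was at 0.0596 to 0.242 CPM in control and 0.0535 to 0.488 CPM in CML libraries. MMP9, the other gelatinase, was at 0.513 to 0.591 and 0.187 to 0.695 CPM. Both gelatinases therefore rested on no more than 12 reads in any library.

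**Figure D2:**
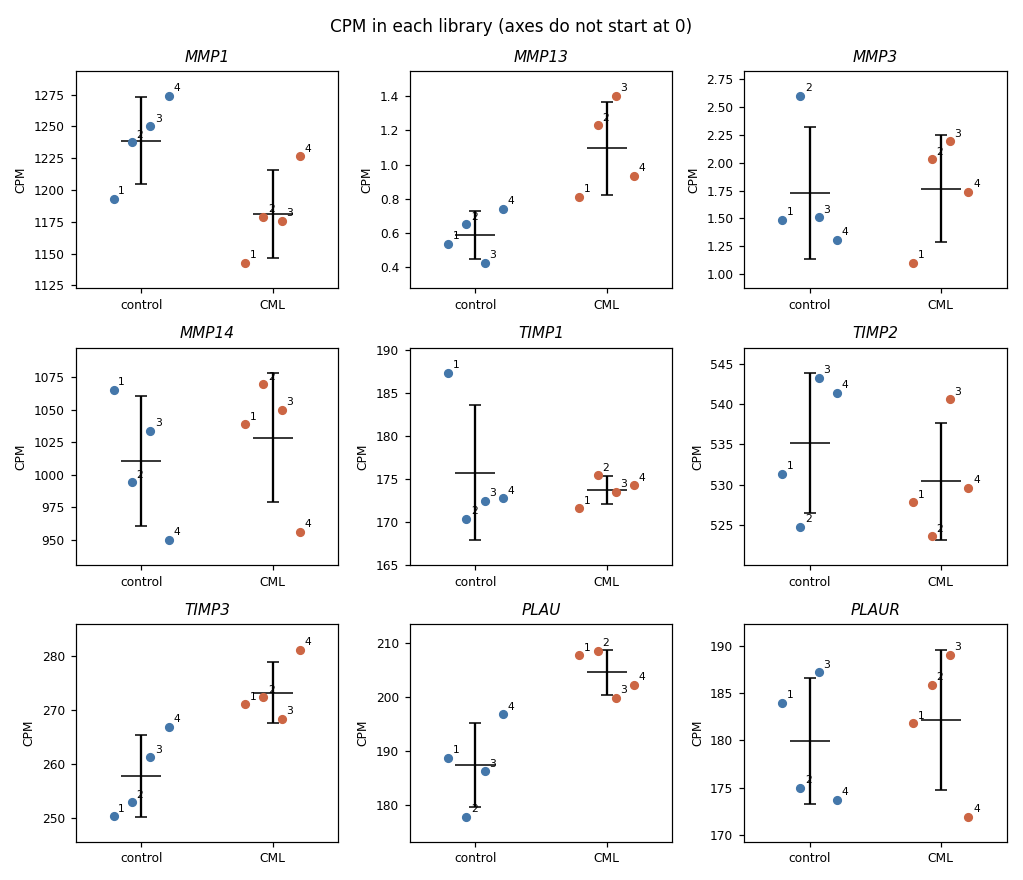
CPM of the 9 members, 1 point per library with its replicate number, control in blue and CML in red, with the mean and SD (n = 4) in black. The vertical axes differ and do not start at 0. The groups do not overlap for MMP13, TIMP3 and PLAU, and in MMP14 and PLAUR replicate 4 is the lowest of both groups.

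Of the inhibitors, TIMP3 differs from the others in binding to the extracellular matrix, and it blocks several ADAM proteases as well as metalloproteinases. The gene (ENSG00000100234.11) is at chr22:32801705-32863041. Its control libraries held 250.4, 253, 261 and 267 CPM and its CML libraries 271, 272, 268 and 281 CPM. The lowest CML library was above the highest control library by a small margin, and replicate 4 was the highest of each group. The mean went from 258 ± 7.61 to 273 ± 5.57 CPM (SD, n = 4 each), a log2 fold change of 0.08 ± 0.02 (SE) with a 95% interval of 0.02 to 0.14. The adjusted p was 0.465 (limma), above the threshold, and the exact permutation p was 0.0286. Each value rested on 4199 to 5091 reads.

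The 250 bases before the start of TIMP3 are shown because it is 1 of the 2 well-expressed members with the smallest p. Capitals mark GC boxes (GGGCGG on either strand, the site of SP1-type factors). The window is chr22:32801455-32801704, plus strand, from RefSeq on GRCh38.p14.
TIMP3: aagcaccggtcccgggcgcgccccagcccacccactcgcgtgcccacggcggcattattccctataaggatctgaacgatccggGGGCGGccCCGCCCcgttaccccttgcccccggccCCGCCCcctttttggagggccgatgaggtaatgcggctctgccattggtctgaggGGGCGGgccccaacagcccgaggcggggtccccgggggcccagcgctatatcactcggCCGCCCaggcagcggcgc
It holds 5 GC boxes, whose first bases lie 166, 158, 131, 76 and 18 bases before the start, and no AP-1 motif (TGAGTCA or TGACTCA) and no ETS motif (AGGAAG or CTTCCT). A GC box was present in 42.6%, an ETS motif in 28.7% and an AP-1 motif in 4.2% of 35116 promoter windows of this length. A match is a run of letters and no measured binding site.

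TIMP1 and TIMP2, both soluble inhibitors, showed no difference beyond the spread between replicates. TIMP1 (ENSG00000102265.12, chrX:47582436-47586789) had 187, 170.4, 172 and 173 CPM in control and 172, 175, 173.5 and 174 CPM in CML libraries. The first control library stood above the other 7, which lay between 170.4 and 175 CPM. The log2 fold change was -0.02 with a 95% interval of -0.09 to 0.06 (adjusted p = 0.988, limma). TIMP2, which with MMP14 forms the complex that activates proMMP2, is at chr17:78852977-78925387 (ENSG00000035862.12). Its levels were 531, 525, 543 and 541 CPM in control and 528, 524, 541 and 529.6 CPM in CML libraries. The ranges of the groups almost coincided. TIMP2 had the narrowest interval of all members, -0.05 to 0.03 on the log2 scale around a fold change of -0.01 (adjusted p = 0.953, limma).

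PLAU encodes urokinase, the serine protease that starts plasmin formation at the cell surface. The gene (ENSG00000122861.16) is at chr10:73908832-73917494. Control libraries held 189, 178, 186 and 197 CPM and CML libraries 208, 209, 199.9 and 202 CPM. Every CML library was above every control library, the fourth control library coming closest. Means were 187 ± 7.80 and 205 ± 4.198 CPM (SD, n = 4 each), on 3009 to 3898 reads per library. The log2 fold change was 0.13 ± 0.03 (SE) with a 95% interval of 0.05 to 0.20. PLAU had the smallest p of the members, 0.00529 before and 0.375 after adjustment over all genes (limma), and an exact permutation p of 0.0286.

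PLAU is shown with the 250 bases before the second of the 2 starts that had a promoter window, which both lie inside the span of the gene. The first base of that span had no window and was not searched. Capitals mark GC boxes and the ETS motif. The window is chr10:73910882-73911131, plus strand, on GRCh38.p14.
PLAU: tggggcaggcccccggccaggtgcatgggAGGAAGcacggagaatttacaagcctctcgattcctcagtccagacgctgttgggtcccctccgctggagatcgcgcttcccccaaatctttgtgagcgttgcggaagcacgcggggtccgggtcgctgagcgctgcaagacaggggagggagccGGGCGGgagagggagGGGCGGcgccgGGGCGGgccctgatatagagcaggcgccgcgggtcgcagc
The ETS motif begins 221 bases before the start, and the GC boxes 66, 51 and 40 bases before it. The window before the other start (chr10:73910360-73910609) held none of the 3 motifs. Of the remaining members, MMP14 had 1 GC box, TIMP1 had 2 GC boxes and 1 ETS motif, and PLAUR had 1 AP-1 motif 186 bases and 1 ETS motif 15 bases before the start. MMP1, MMP3, MMP13 and TIMP2 were not matched. PLAUR was thus the 1 member among the 5 searched with an AP-1 motif in its window.

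PLAUR, the receptor that holds urokinase on the membrane, is at chr19:43646095-43670169 (ENSG00000011422.12). It had 184, 175, 187 and 174 CPM in control and 182, 186, 189 and 172 CPM in CML libraries. The groups overlapped over nearly their whole range. The means were 180.0 ± 6.66 and 182 ± 7.45 CPM (SD, n = 4 each), and the log2 fold change was 0.02 with a 95% interval of -0.07 to 0.11 (adjusted p = 0.995, limma). The sign of this small difference turned with the libraries centred on their medians (-0.00242) and after quantile normalization (-0.00725).

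Before adjustment, 3 of the 9 members (PLAU, MMP13 and TIMP3) had p under 0.05, against 1352 or 7.66% of all genes. The same 3 were the members whose CML values all exceeded their control values, as those of 442 genes did (2.5%), and 0 members were wholly lower, against 225 genes (1.27%). Among the 8 members whose mean reached 1 CPM, 5 fold changes were above 0 and 3 below, with a median of 0.02, and over the 13047 genes at that level 58.8% were above 0 with a median of 0.01. The members were chosen with earlier results of these data known, so these shares do not test the set.

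**Figure D3:**
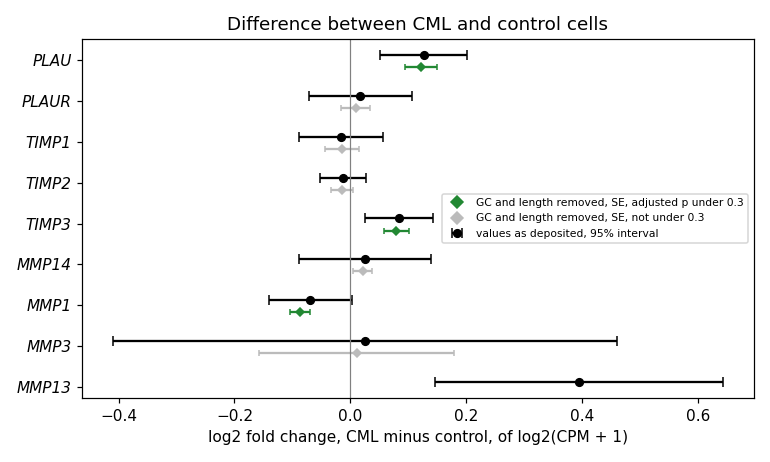
Log2 fold change of each member, CML minus control, on the log2(CPM + 1) scale. Black circles with 95% intervals are the deposited values, and diamonds with SE bars are the values after removal of GC and length dependence, green where the adjusted p was under 0.3. TIMP3, PLAU and MMP1 are green, and MMP13 has no diamond because its mean is under 1 CPM.

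The members differed in which library was the extreme one. As deposited, replicate 4 was the lowest of both groups for MMP14 (58.9% GC) and PLAUR (55.9%) and the highest of both for MMP1 (43.3%) and TIMP3 (48.7%). The other members did not follow this pattern. For TIMP1 (57.5% GC) and TIMP2 (53.7%), replicate 4 was the second highest of each group. Replicate 4 was the extreme in control libraries alone for the rest, lowest for MMP3 (45%) and highest for MMP13 (38.9%) and PLAU (52.8%). Once the part of each library's values that varied with GC content and transcript length had been taken out, the SD within groups went from 0.0715 to 0.0164 for MMP14, from 0.0563 to 0.0265 for PLAUR, from 0.0410 to 0.0208 for MMP1 and from 0.0363 to 0.0176 for TIMP3 (log2 units). For the median of all genes it went from 0.0931 to 0.0784. TIMP1, TIMP2 and MMP3 did not become tighter, and PLAU went from 0.0472 to 0.0432.

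**Figure D4:**
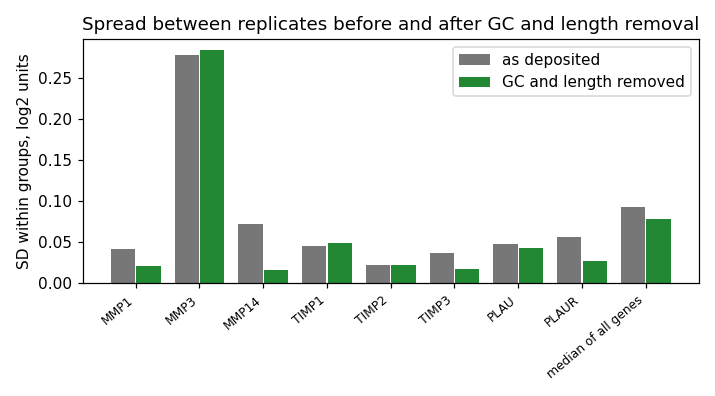
SD of log2(CPM + 1) within groups (bars from 0), as deposited in grey and after removal of the dependence on GC content and length in green, for the 8 members whose mean reached 1 CPM and for the median of all genes. MMP14 goes from 0.0715 to 0.0164, whereas MMP3 stays near 0.28.

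With that dependence removed, limma called 3 of the 8 members that could be fitted, against 875 of 12978 genes (6.74%). This share is no test of the set either, since the members were chosen with earlier results known. MMP1 fell by 0.09 on the log2 scale (adjusted p = 0.012), with values of 10.27, 10.29, 10.31 and 10.27 in control and 10.17, 10.20, 10.21 and 10.22 in CML libraries. PLAU rose by 0.12 (adjusted p = 0.0307), with 7.57, 7.51, 7.54 and 7.63 in control and 7.71, 7.69, 7.64 and 7.69 in CML libraries. TIMP3 rose by 0.08 (adjusted p = 0.0825), with 8.01, 8.01, 8.03 and 8.03 against 8.10, 8.08, 8.08 and 8.13. The groups of all 3 genes then did not overlap, as was so in the higher direction for 570 genes (4.39%) and in the lower direction for 343 (2.64%) of the 12978. Without the fourth control library, PLAU (0.15, adjusted p = 0.174), TIMP3 (0.10, adjusted p = 0.241) and MMP13 (0.44, adjusted p = 0.279) passed, with 690 genes or 3.91% of all (limma). Without replicate 4 of both groups, an alternative chosen after the data were seen, PLAU alone passed (0.16, adjusted p = 0.259, limma), with 321 genes or 1.82%. Without the fourth CML library alone, 0 members passed, as with all libraries (limma). Over the 19 alternatives the fold change of PLAU stayed between 0.10 and 0.16, that of TIMP3 between 0.06 and 0.10 and that of MMP1 between -0.09 and -0.05. PLAU passed in 4 of them, TIMP3 in 3 and MMP1 in 2, with adjusted p of up to 0.635, 0.734 and 0.85 (limma). MMP13 ran from 0.33 to 0.79, the highest with the pseudocount of 0.1, and passed in 1 of 16. All alternatives draw on the same libraries.

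In all, 3 ratios of members whose proteins bind each other were compared, since a ratio within a library does not depend on how the library was scaled. The ratios were taken on deposited values, without GC and length removal, and a dependence on GC content need not cancel in them. The log2 ratio of PLAU to PLAUR was 0.06 ± 0.08 in control and 0.17 ± 0.06 in CML libraries (SD, n = 4 each, exact permutation p = 0.0857, adjusted over the 3 ratios 0.257). MMP1 to TIMP1 went from 2.81 ± 0.10 to 2.76 ± 0.04 (exact permutation p = 0.371) and MMP14 to TIMP2 from 0.92 ± 0.08 to 0.95 ± 0.07 (exact permutation p = 0.486), both 0.486 after adjustment. The groups overlapped in all 3 ratios.

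The other genes of the plasminogen system gave 1 call. Of 14 listed genes, 9 reached a mean of 1 CPM, and 1 rose (PLAT) and 0 fell. PLAT, tissue plasminogen activator, cuts plasminogen as urokinase does. It had 331, 332, 333 and 305 CPM in control and 374, 374, 369 and 351 CPM in CML libraries, so all CML values were higher. The mean rose from 325 ± 13.7 to 367 ± 10.7 CPM (SD, n = 4 each), a log2 fold change of 0.17 ± 0.04 (SE, adjusted p = 0.263, limma). The call held in 10 of 19 alternatives, over which its adjusted p ran from 0.000757 to 0.534. Among the settings that lost it were median centring (adjusted p = 0.324, limma), quantile normalization (0.482, limma) and ordinary variances. With 1 library left out, the call held only without the fourth control library or without the fourth CML library.

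ANXA2, a plasminogen-binding protein of the cell surface, had 1490.1 to 1612 CPM in control and 1638 to 1665 CPM in CML libraries (0.10, adjusted p = 0.469, limma). It was called in 4 of 19 alternatives, among them GC and length removal (adjusted p = 0.0185, limma). Its estimated reads were not whole numbers in 6 libraries. F3, tissue factor, had 83.6 to 91.6 CPM in control and 88.4 to 96.3 CPM in CML libraries, with groups that overlapped (0.08, adjusted p = 0.673, limma). The median log2 fold change of the 9 expressed genes was 0.05, with 7 of them (77.8%) above 0, against 58.8% of all genes at that level.

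**Figure D5:**
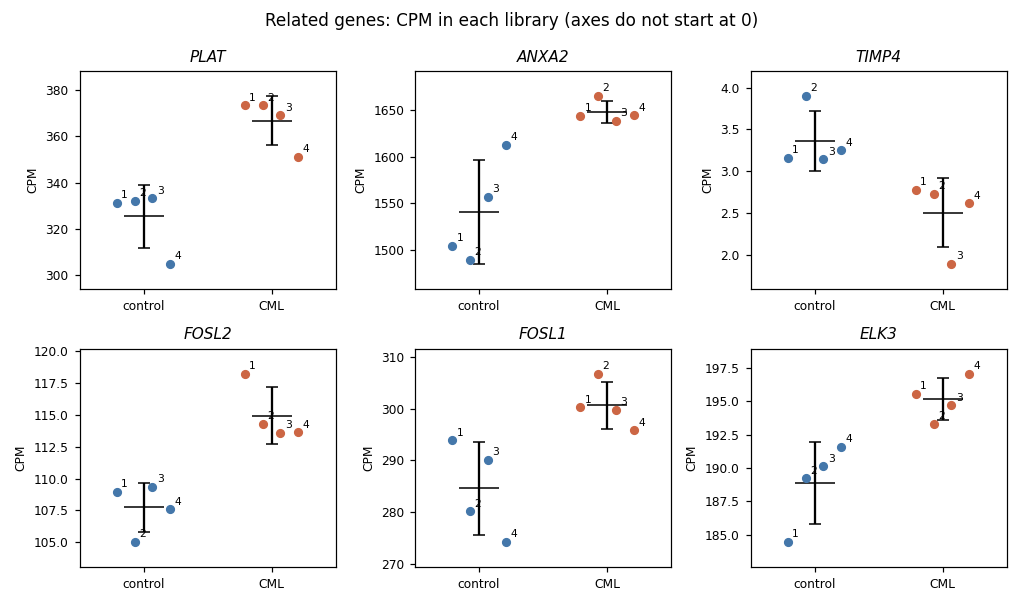
CPM of 6 related genes, 1 point per library with its replicate number, control in blue and CML in red, with the mean and SD (n = 4) in black. The vertical axes differ and do not start at 0. PLAT and FOSL2 passed the threshold, and TIMP4 is the gene whose CML values lie under its control values.

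Among 16 AP-1 and ETS transcription factors, families whose motifs are known from promoters of metalloproteinase and urokinase genes, all 16 reached that level, and 1 rose (FOSL2) and 0 fell. FOSL2, an AP-1 subunit also called FRA2, went from 108 ± 1.94 to 115 ± 2.21 CPM (SD, n = 4 each), with 105 to 109 CPM in control and 114 to 118 CPM in CML libraries. Its log2 fold change was 0.09 ± 0.02 (SE, adjusted p = 0.263, limma), and the call held in 6 of 19 alternatives. FOSL1 (FRA1) had 274 to 294 CPM in control and 296 to 307 CPM in CML libraries (0.08, adjusted p = 0.488, limma). ELK3, an ETS factor, had 184 to 192 and 193 to 197 CPM (0.05, adjusted p = 0.468, limma). The groups did not overlap for either gene. The immediate-early members FOS and JUN were not separated, with adjusted p of 0.959 and 0.968 (limma).

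The other metalloproteinases were low, at no more than 9.58 CPM in any library. Of 19 listed, 11 had values, 5 reached a mean of 1 CPM, and 0 passed in either direction. MMP19 had 4.62 to 5.32 CPM in control and 5.04 to 5.67 CPM in CML libraries (0.09, adjusted p = 0.821), and MMP11, stromelysin 3, had 5.26 to 6.77 and 4.57 to 6.52 CPM (-0.17, adjusted p = 0.831, limma). None of the expressed inhibitors and activators passed either (8 of 10 listed). TIMP4, the fourth inhibitor of the family, was the 1 related gene whose CML values (1.89 to 2.78 CPM) all lay under its control values (3.14 to 3.90 CPM), on 31 to 66 reads, (log2 fold change -0.32, adjusted p = 0.505, limma). PCSK7, a proprotein convertase, and TFPI2, a matrix-bound inhibitor of plasmin, had adjusted p of 0.622 and 0.733 (limma).

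No ADAM or ADAMTS protease passed (11 of 17 listed reached a mean of 1 CPM), the smallest adjusted p at that level being 0.631 for ADAMTS15 (22.7 to 20.9 CPM by its means) 0.799 for ADAM9 and 0.897 for ADAMTS6 (limma). No cathepsin or other matrix protease passed either (10 of 18 listed), with adjusted p of 0.851 for CTSL, 0.864 for CTSS and 0.897 for CTSB (limma). Of all 94 related genes, 76 had values and 59 reached a mean of 1 CPM. Of the 76, 2 rose and 0 fell, where 0.895% of all genes were called. Of the 59, 39 fold changes were above 0 (66.1%) and 20 below, with a median of 0.03. Over all genes at that level, 58.8% were above 0, with a median of 0.01.

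The genes whose levels over the 8 libraries were most like those of PLAU, among 10768 genes whose mean reached 5 CPM, were PDE1C, ZDBF2 and SAE1 (Pearson r of 0.968, 0.961 and 0.961 on log2(CPM + 1)). For TIMP3 they were FNDC3B, EIF2AK4 and TFRC (0.988, 0.981 and 0.98). These are descriptions over 8 points that share their groups, their depth and the GC dependence given above. PDE1C and SAE1 were themselves called higher with CML (log2 fold changes of 0.28 and 0.09, adjusted p of 0.228 and 0.294, limma), and the genes most like TIMP3 were not.

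Genes that overlap a member were low. WTAPP1, a pseudogene on the opposite strand that shares exonic sequence with MMP1 and MMP3, had a mean of 0.0143 CPM. C10orf55, opposite PLAU with exons that overlap, had 0.605 CPM, SYN1, opposite TIMP1, had 0.139 CPM, and SYN3, opposite TIMP3, was listed at 0. CEP295NL, which shares exonic sequence with TIMP2, and the other overlapping noncoding genes had no values here. Whether counting used strand is not given in the sources used here, so reads from overlapping exons cannot be told apart. The exons of SYN1 and SYN3 do not overlap those of TIMP1 and TIMP3.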

How the data were processed

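RNA-Seq was carried out on 4 control and 4 CML cultures of MDA-MB-231 cells, grouped by the treatment in the sample labels. The authors deposited CPM values, 1 column per library, made with edgeR per the labels, and the methods describe TMM scaling for the study's other RNA-Seq data. Per the labels' processing notes, the build was hg38. The aligner and counting tool for this experiment are not given in the sources used here, and the labels give the instrument as NextSeq in 1 field and HiSeq in another. The 17681 rows included 764 at 0 in all libraries and 2966 that reached 0.5 CPM in no more than 1 library. Columns summed to 986730 to 1014124. Between 88.1% and 89% of values were whole multiples of the smallest step (within 0.1 read), too few for a count test, and reads given are estimates of that kind. All 9 members were whole in all libraries.

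Rows with the same symbol were averaged (32 symbols). The groups were compared on log2(CPM + 1) in limma (version 3.58.1, R version 4.3.3), letting the variance follow mean expression, and p-values were adjusted by the Benjamini-Hochberg method across the 17649 genes, with calls at the study's FDR of 0.3. Single values and ratios were also compared by an exact 2-sided permutation test. GC content and length (Ensembl canonical transcript, GENCODE 44, used for these and for overlaps) were regressed out of each library's deviation from the gene means with natural splines (5 degrees of freedom), for 12978 genes whose mean reached 1 CPM. Coordinates and promoter windows are from RefSeq on GRCh38.p14. Python 3.11.15 and matplotlib 3.10.9 were used for counts and plots.

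Named genes were all members, PLAT, MMP2 and MMP9, the 3 genes of each related list with the smallest p at a mean of at least 1 CPM, any related gene called, cluster neighbours, overlapping genes, and the 3 genes most like PLAU and TIMP3. FOS and JUN, the cell type markers and the genes of a changed count were named outside this rule, after their values were seen. Another gene of this rule and its ratio are not reported here. The members and lists were chosen with earlier results of these data known. The alternatives tried were genes whose mean reached 1 CPM alone, the smaller pseudocount 0.1, separate rows for repeated symbols, median centring, quantile normalization, no trend, ordinary variances, a replicate block, GC and length removal, and each library left out.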

Additional observations from a re-analysis of the deposited data

Results flagged for a closer look

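In 64 groups of 4 libraries examined (members, ratios and the related genes named by rule, control and CML separately), 8 held a library far from its 3 fellows, where chance would give about 3.2 at 1 in 20. The second control library had 2.60 CPM of MMP3, against 1.31 to 1.51 CPM in the other 3 control libraries, on 19 to 44 reads per library over both groups. The first control library had 187.35 CPM of TIMP1, against 170.4 to 173 CPM in the others. In that library the log2 ratio of MMP1 to TIMP1 was 2.664, against 2.85 to 2.88 in the other control libraries, MMP1 being lowest and TIMP1 highest there among the control libraries.

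Of the related genes, PLAT had 304.72 CPM in the fourth control library, under the 331 to 333 CPM of the others, and TFPI2 had 34.5 CPM in the same library, against 37.5 to 38.1 CPM. FOSL2 had 118.21 CPM in the first CML library, above the 114 CPM of each of the others. TIMP4 had 3.90 CPM in the second control library, against 3.14 to 3.25 CPM, and CTSS had 72.864 CPM in the fourth CML library, against 67.6 to 68.2 CPM.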

How the results depend on the processing

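All values are on the deposited scale unless a setting is named. Of 17649 genes, 158 were called (119 higher, 39 lower), and 73 (46 and 27) with libraries centred on their medians, 84 with ordinary variances, 875 (550 and 325) with GC and length removed and 928 with that and the replicate block. Leaving out 1 library gave 20 (without the second CML library) to 690 (without the fourth control library), and leaving out replicate 4 of both groups, chosen after seeing the data, gave 321. For the members, the count of 0 became 3 with GC and length removed, with or without the block (adjusted p under the block 0.0118 for MMP1, 0.0252 for PLAU and 0.0909 for TIMP3), 0 to 3 with 1 library left out and 1 without replicate 4 of both groups. For the related genes, the count of 2 became 0 under median centring, quantile normalization and ordinary variances, 4 with the replicate block (ADAMTS5, ETS1, F3 and PLAT), 8 with GC and length removed, also with the block, 1 (PLAT) among genes whose mean reached 1 CPM, and 0 to 8 with 1 library left out (0 without the first or second control library or any of the first 3 CML libraries). The 8 related genes called with GC and length removed, of 59 fitted, were ANXA2, CD44, ETS1, FOSL1, FOSL2, JUND, PLAT and TIMP4. Of these, 6 were higher and 2 lower with CML, where 6.74% of all fitted genes were called. The log2 fold changes of members after GC and length removal were -0.0865 for MMP1, 0.0794 for TIMP3 and 0.122 for PLAU, with and without the block. With 1 library or replicate 4 of both groups left out, the log2 fold changes on the deposited scale ran from -0.0873 to -0.0532 for MMP1, 0.325 to 0.475 for MMP13, -0.0501 to 0.166 for MMP3, -0.00412 to 0.0599 for MMP14, -0.0301 to 0.0153 for TIMP1, -0.0223 to -0.00567 for TIMP2, 0.0696 to 0.1003 for TIMP3, 0.102 to 0.156 for PLAU and -0.000778 to 0.0446 for PLAUR. PLAUR was -0.00242 under median centring and -0.00725 under quantile normalization. The cause of these moves was not tested.

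Same-numbered libraries of the groups correlated at -0.0645 to 0.334 in their deviations from the group means, and 4 of 8 libraries correlated best with their own number, so the numbers were not taken as pairs. With the replicate block no member was called (adjusted p of 0.435 for PLAU, 0.356 for TIMP3, 0.370 for MMP1 and 0.454 for MMP13), and 189 genes were. With 4 libraries a group, MMP3 and MMP13 rest on 7 to 44 reads, and the exact test cannot go below 0.0286.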
